A study of Mus musculus with 6 samples.

Results

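The vacuolar-type proton ATPase (V-ATPase) is the pump that acidifies lysosomes, endosomes and secretory vesicles. Its genes were compared between Nlk-KO and WT mouse Neuro2a (N2a) cells. The 34 genes were chosen by name and not by their values, though earlier results of these data were known. They encode 10 subunits of the membrane sector V0, 13 subunits of the cytosolic sector V1, and 11 accessory proteins and assembly factors. All 34 were found among the 26657 loci of the deposited table. Polyadenylated RNA had been sequenced from 3 Nlk-KO and 3 WT libraries, each named as a biological replicate. N2a is a mouse neuroblastoma line, and the labels name no treatment of either group. According to the methods, Nlk was mutated with guide RNAs and Cas9, single cells were grown into clones, and the clones were graded by their remaining Nlk protein because N2a cells are polyploid. Several separate clones without detectable Nlk protein were kept for the study's experiments, to guard against effects of a single clone. Which of them gave each of the 3 Nlk-KO libraries is not stated in the sources used here, and differences between clones were not tested. Whether the libraries of a group came from separate cultures is not described beyond the word replicate, and the p-values measure only the spread between these libraries.

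The V-ATPase works as a rotary motor. V1 hydrolyzes ATP in a ring of A and B subunits, the turning stalk drives a ring of c subunits in V0, and protons pass into the organelle between this ring and the a subunit. Several subunits exist as paralogs that differ by tissue or by organelle. Dedicated factors build V0 in the endoplasmic reticulum, and others join V1 to V0 on the acidic organelle. At the lysosome the pump also takes part in the recruitment of mTORC1, and many of its genes are known targets of the lysosomal transcription factor Tfeb.

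Nlk itself was measured at 6.78, 7.01 and 6.83 FPKM in Nlk-KO cells, against 15.8, 16.6 and 16.1 FPKM in WT cells. FPKM are fragment counts scaled by transcript length and by a factor for each library, so levels of different genes can be set side by side. Nlk fell by 1.22 on the log2 scale (adjusted p = 1.36e-06, limma) and was lower in every library labelled Nlk-KO. Edited alleles can still be transcribed. The labelled neuroblastoma identity was checked with 9 sympathoadrenal markers. Of these, 8 were above 0.5 FPKM on average, and their summed level was 771 to 785 FPKM in Nlk-KO and 756 to 810 FPKM in WT libraries. A few abundant markers made up most of that sum, so it does not register losses among markers of lower level. Of the 8, 1 was higher and 3 were lower at an adjusted p under 0.05 by limma, against 18.6% and 18.5% of all loci. Among the lower ones were Dbh (log2 fold change −2.90) and Th (−3.09), and the higher one was Stmn2 (0.19). Of 6 fibroblast markers, Pdgfra (1.06) and Fbln1 (0.48) rose and the other 4 were below 0.5 FPKM, with sums of 199.5 to 213 FPKM in Nlk-KO and 136 to 153 FPKM in WT libraries. The part of these shifts in the results below was not tested. A relative depth was taken from the scaled values of loci of low level and set to 1 for WT replicate 1. It was 0.971 to 1.28 in Nlk-KO and 1 to 1.15 in WT libraries. This value reflects the library factor, which may differ from the number of reads. The total reads are not known. In such bulk samples, fewer cells of a type and less RNA per cell cannot be told apart.

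Most V-ATPase genes were expressed well above the filter, and their median fold change was close to 0. Of the 34 genes, 29 had a mean of at least 0.5 FPKM and were tested. Tcirg1 rose in Nlk-KO cells, Atp6v0a1, Atp6v0d1, Atp6v1b2, Ccdc115, Wdr7 and Rogdi fell, and 22 did not pass the threshold of an adjusted p of 0.05. The 7 changed genes were 24.1% of the 29 tested, against 37.1% of all 12667 loci tested. The 1 higher gene stands beside 18.6% of all loci higher, and the 6 lower genes beside 18.5% lower. Without adjustment, 13 of the 29 had a p under 0.05, 4 of them higher and 9 lower. Of all loci, 46.8% had an unadjusted p under 0.05, 22.9% higher and 23.9% lower. The members' median log2 fold change was −0.01, the same as that of all loci, and their median absolute change was 0.09, against 0.14 for all loci. The absolute change was under 0.1 in 17 of the 29 members. The libraries of the genotypes did not overlap in 14 of the 29 (48.3%), against 51.0% of all loci. A fold change here is the difference in log2(FPKM + 0.1), Nlk-KO minus WT.

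**Figure D1:**
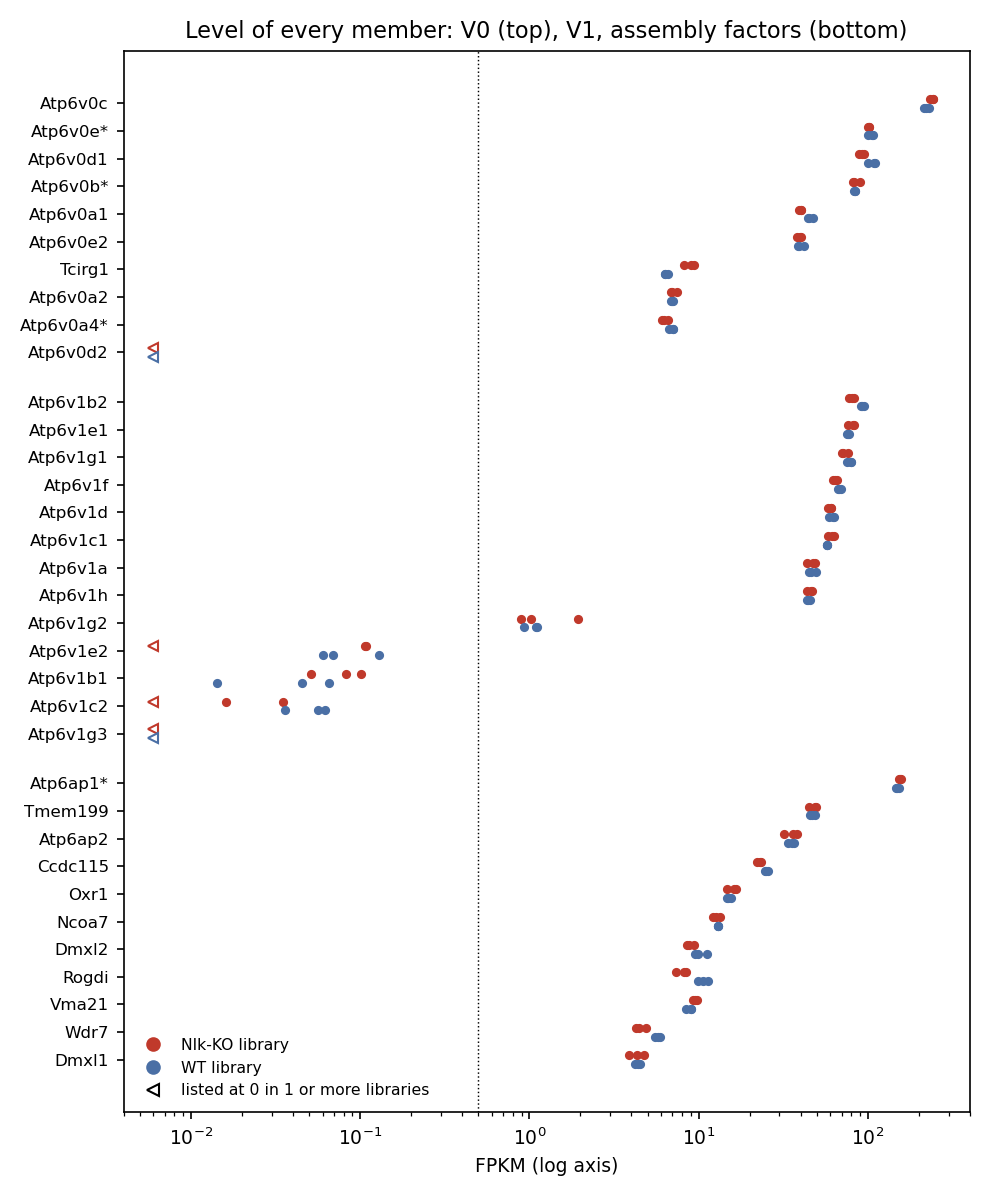
Level of all 34 V-ATPase genes in FPKM on a logarithmic axis, with 1 point per library (red, Nlk-KO; blue, WT), grouped from top to bottom as V0, V1 and assembly factors and sorted by mean level. The dotted line marks 0.5 FPKM, asterisks mark loci shared with another gene, and 5 genes lie left of the line, of which Atp6v0d2 and Atp6v1g3 are listed at 0 in all 6 libraries.

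Levels differed widely within the pump. Within V0, Atp6v0c, which encodes the proton-carrying c subunit of the ring, was the highest of all 34 genes at 239 ± 4.90 FPKM in Nlk-KO and 221 ± 8.22 FPKM in WT cells (SD, n = 3 each). Another 5 paralogs were at or near 0. Atp6v0d2, known from osteoclasts, and Atp6v1g3, known from kidney, were listed at 0 in all 6 libraries. Atp6v1b1, the B subunit of kidney and inner ear, was at 0.101, 0.0829 and 0.0512 FPKM in Nlk-KO and 0.0655, 0.0454 and 0.0142 FPKM in WT libraries. Atp6v1c2 ran from 0 to 0.0348 FPKM in Nlk-KO and 0.0358 to 0.0619 FPKM in WT libraries. Atp6v1e2, known from testis, ran from 0 to 0.108 FPKM in Nlk-KO and 0.0603 to 0.129 FPKM in WT libraries. These 5 genes were below the filter and were not tested, and a listed 0 may be a failed estimate as well as a missing transcript. The summed level of the V0 genes was 619 ± 13.1 FPKM in Nlk-KO and 622 ± 20.0 FPKM in WT cells, and that of the V1 genes was 511 ± 16.6 FPKM in Nlk-KO and 526 ± 0.715 FPKM in WT cells. The assembly group summed to 325 ± 7.89 FPKM in Nlk-KO and 325 ± 4.98 FPKM in WT cells (SD, n = 3 each). The lowest V1 sum, 492 FPKM, came from Nlk-KO replicate 2, and the other Nlk-KO libraries had 523 and 519 FPKM.

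**Figure D2:**
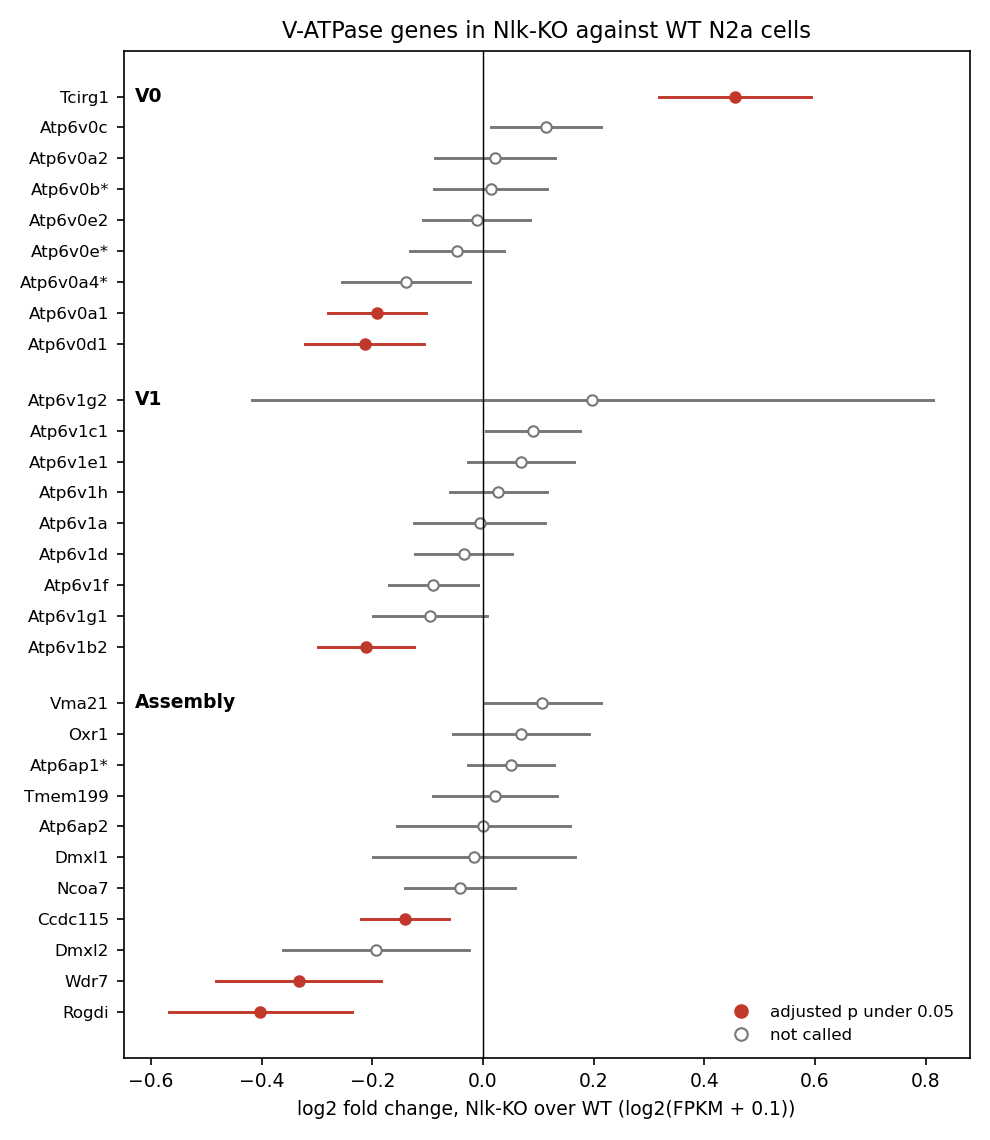
Log2 fold change of the 29 tested V-ATPase genes, Nlk-KO over WT, with 95% intervals from limma (3 libraries per genotype). Filled red points passed an adjusted p of 0.05, open gray points did not, and asterisks mark loci shared with another gene; Tcirg1 lies alone on the right at 0.46 and Rogdi lowest at −0.40.

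In V0, the a subunit and the d subunit changed. The a subunit forms the path along which protons cross the membrane, and its 4 paralogs direct the pump to different membranes. Tcirg1 (chr19:3896050-3907133, GRCm38, minus strand) encodes the a3 form, known from lysosomes and from the ruffled border of osteoclasts, where its loss causes osteopetrosis. It was measured at 8.18, 9.42 and 9.04 FPKM in Nlk-KO cells, against 6.37, 6.58 and 6.36 FPKM in WT cells. All 3 Nlk-KO libraries lay above all WT libraries. Tcirg1 was 38.0% higher (log2 fold change 0.46, SE 0.058, adjusted p = 0.00103 by limma). All 6 osteoclast markers were below 0.5 FPKM on average and summed to 0.539 to 0.757 FPKM in Nlk-KO and 0.437 to 0.639 FPKM in WT libraries. Of 6 microglia and macrophage markers, 5 were below 0.5 FPKM, and the remaining one, Cd68, shares its locus with Eif4a1 and Senp3 and cannot be read.

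Atp6v0a1 (chr11:101009452-101063719, plus strand) encodes the a1 form, known from neurons and synaptic vesicles, and was the most abundant a subunit. It had 39.2, 40.0 and 40.4 FPKM in Nlk-KO libraries, against 45.0, 47.6 and 44.1 FPKM in WT libraries. The genotypes did not overlap, and Atp6v0a1 fell by 12.5% (log2 fold change −0.19, SE 0.038, adjusted p = 0.00681). Atp6v0a2, the a2 form of Golgi and endosomes, had 6.84, 6.93 and 7.42 FPKM in Nlk-KO libraries, against 6.95, 7.06 and 6.86 FPKM in WT libraries. These values overlapped (log2 fold change 0.02, 95% interval −0.09 to 0.13, adjusted p = 0.750). The locus of Atp6v0a4, the a4 form of kidney and inner ear, had 6.59, 6.08 and 6.27 FPKM in Nlk-KO and 7.09, 7.08 and 6.72 FPKM in WT libraries (log2 fold change −0.14, adjusted p = 0.0614). That locus also holds D630045J12Rik, so its reads cannot be assigned to Atp6v0a4. Of 4 intercalated cell markers of the kidney, only Slc26a4 was above 0.5 FPKM, at 5.84 FPKM in Nlk-KO and 13.6 FPKM in WT cells, and Foxi1 was listed at 0 in every library.

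**Figure D3:**
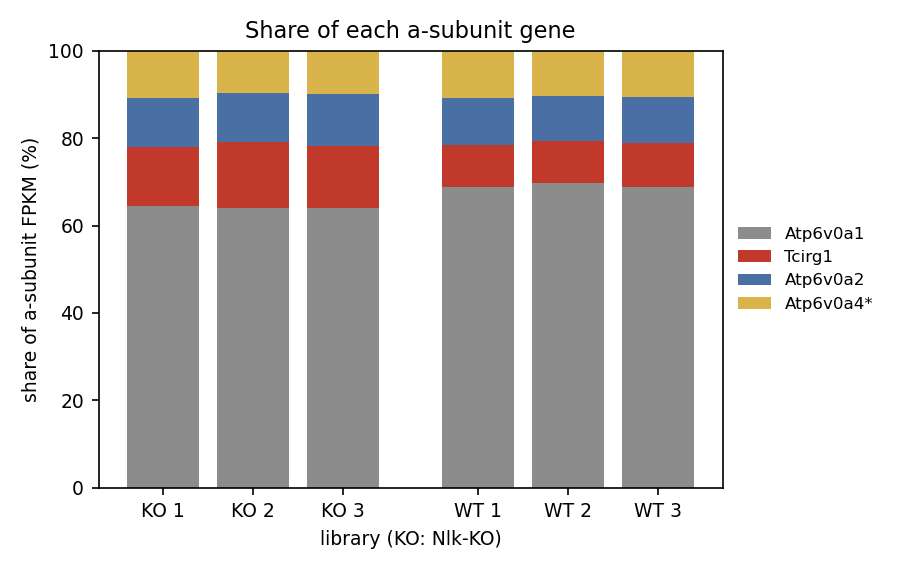
Share of each a-subunit gene in the summed FPKM of the 4 a-subunit genes, in percent, for each Nlk-KO library (left) and each WT library (right); the asterisk marks the locus shared by Atp6v0a4 and D630045J12Rik. Tcirg1 takes 13.4% to 15.1% in Nlk-KO libraries and 9.62% to 9.93% in WT libraries.

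The share of each a subunit was taken within each library, as drawn in the plot of shares. Tcirg1 made up 13.4%, 15.1% and 14.3% of the a-subunit FPKM in Nlk-KO libraries, against 9.74%, 9.62% and 9.93% in WT libraries. The log2 ratio of Tcirg1 to Atp6v0a1 was higher in Nlk-KO cells by 0.65. The ratio of Atp6v0a2 to Atp6v0a1 was higher by 0.21. Neither ratio overlapped between the genotypes, and the exact two-sided permutation test gave p = 0.1 for both, which is the smallest value that 3 libraries against 3 allow (adjusted p = 0.175 over 7 paralog ratios). A linear scaling of a library leaves these ratios as they are. They use the same Tcirg1 and Atp6v0a1 values as the tests above.

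Atp6v0d1 (chr8:105524465-105566047, minus strand) encodes the d subunit that couples the stalk of V1 to the ring of V0, and with Atp6v0d2 at 0 it was the only d subunit detected. It had 92.6, 88.4 and 94.4 FPKM in Nlk-KO libraries, against 109, 109.9 and 101 FPKM in WT libraries. Every Nlk-KO library was below every WT library, and Atp6v0d1 fell by 13.8% (log2 fold change −0.21, SE 0.046, adjusted p = 0.00957). The ring subunits did not pass the threshold. Atp6v0c had 242, 233 and 242 FPKM in Nlk-KO libraries, against 219, 230.1 and 214 FPKM in WT libraries, with no overlap (log2 fold change 0.11, 95% interval 0.01 to 0.21, adjusted p = 0.0723). The locus of Atp6v0b, the c′′ subunit, is shared with Dph2 and averaged 84.7 FPKM in Nlk-KO and 83.8 FPKM in WT cells (0.01, adjusted p = 0.832). Among the small e subunits, the Atp6v0e locus, shared with Bnip1 and Crebrf, had 100.6, 101.6 and 101.6 FPKM in Nlk-KO and 105.7, 107.9 and 100.6 FPKM in WT libraries (log2 fold change −0.05, adjusted p = 0.343). Atp6v0e2 had 39.9, 38.2 and 40.5 FPKM in Nlk-KO and 38.6, 41.7 and 39.2 FPKM in WT libraries (−0.01, adjusted p = 0.848). The e subunits overlapped between the genotypes, and their ratio differed by 0.04 on the log2 scale (exact p = 0.5). Of the 9 V0 genes tested, 1 was higher and 2 were lower by limma, against 18.6% and 18.5% of all loci. Their median log2 fold change was −0.01.

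In V1, the B subunit was the only one of 9 tested that passed the threshold. Atp6v1b2 (chr8:69088646-69113711, plus strand) encodes the B2 form, which pairs with the catalytic A subunit in the ATP-hydrolyzing ring. With Atp6v1b1 near 0, it carried nearly all B-subunit RNA. It was measured at 82.6, 76.9 and 80.5 FPKM in Nlk-KO libraries, against 92.0, 91.6 and 94.3 FPKM in WT libraries. The genotypes did not overlap, and Atp6v1b2 fell by 13.7% (log2 fold change −0.21, SE 0.037, adjusted p = 0.00401). Its partner Atp6v1a, the catalytic subunit, averaged 46.6 ± 2.42 FPKM in Nlk-KO and 46.8 ± 2.09 FPKM in WT cells (SD, n = 3 each), with a log2 fold change of −0.01 (95% interval −0.12 to 0.11, adjusted p = 0.943).

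The stalk subunits did not pass the threshold. Atp6v1c1, which links the peripheral stalks to V0, averaged 61.0 FPKM in Nlk-KO and 57.3 FPKM in WT cells, without overlap (log2 fold change 0.09, adjusted p = 0.0903). Atp6v1f, of the central stalk, averaged 63.8 FPKM in Nlk-KO and 67.9 FPKM in WT cells, also without overlap (−0.09, adjusted p = 0.0775). Atp6v1d, its partner in the stalk, had a log2 fold change of −0.04 (adjusted p = 0.493). Atp6v1e1, of the peripheral stalks, had 0.07 (adjusted p = 0.226), and Atp6v1h, which bridges V1 and V0, had 0.03 (adjusted p = 0.594). Atp6v1g1, the common G subunit, had 76.8, 71.3 and 70.7 FPKM in Nlk-KO and 75.0, 79.3 and 79.4 FPKM in WT libraries (log2 fold change −0.10, adjusted p = 0.132). Atp6v1g2, the G form of neurons, was low at 0.893, 1.93 and 1.02 FPKM in Nlk-KO and 0.931, 1.09 and 1.12 FPKM in WT libraries. Nlk-KO replicate 2 alone stood high, and the interval of its log2 fold change, −0.42 to 0.81, leaves its direction undetermined (adjusted p = 0.591). Both G genes overlapped between the genotypes, and their log2 ratio differed by 0.31 (exact p = 0.7). V1 thus held 0 higher and 1 lower gene of 9 tested by limma, against 18.6% and 18.5% of all loci. Its median log2 fold change was −0.01. With unadjusted p-values under 0.05 there were 1 higher (Atp6v1c1) and 2 lower genes (Atp6v1b2 and Atp6v1f), against 22.9% and 23.9% of all loci.

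**Figure D4:**
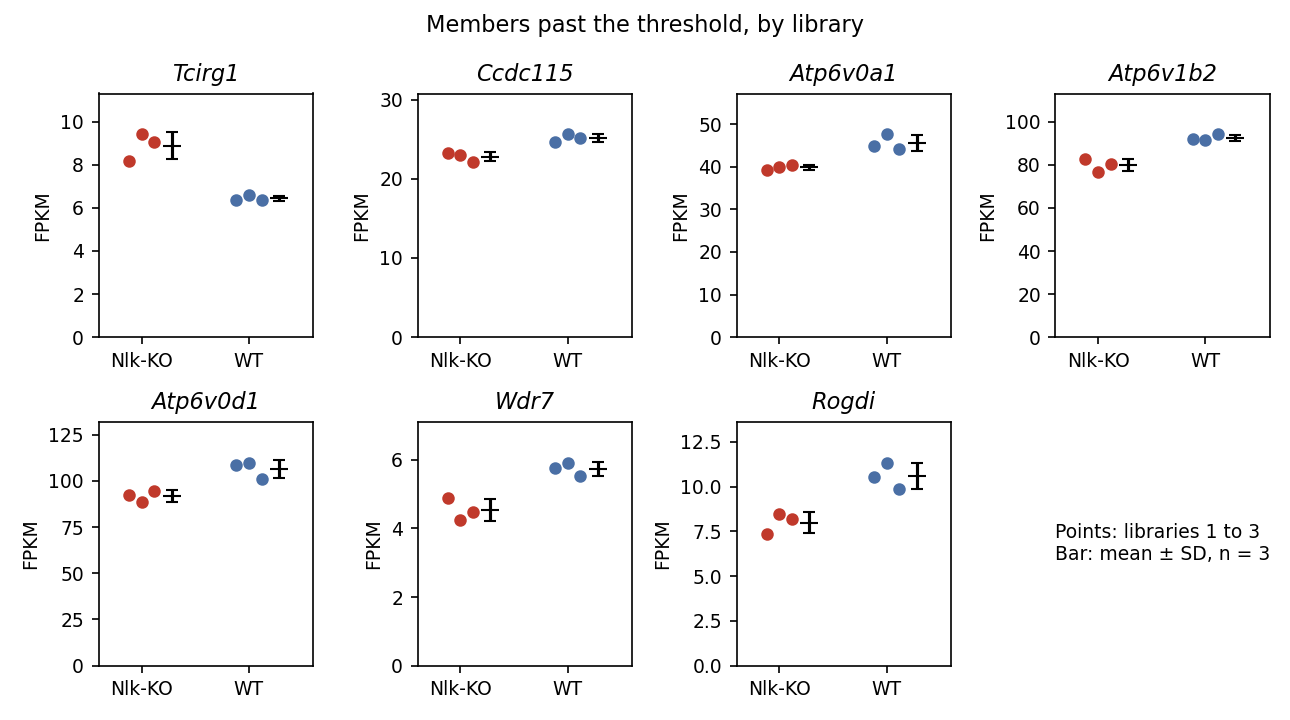
FPKM of the 7 V-ATPase genes past the threshold, each panel with the 3 Nlk-KO libraries (red, left) and the 3 WT libraries (blue, right) and, in black, the mean ± SD (n = 3); every axis starts at 0. In each panel the genotypes do not overlap, with Tcirg1 higher and the other 6 genes lower in Nlk-KO cells.

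The largest falls were in factors that join V1 to V0. Rogdi, Wdr7, Dmxl1 and Dmxl2 are the mammalian counterparts of the yeast RAVE complex, which brings V1 back onto V0 after the pump has come apart, and Wdr7 and Dmxl2 form rabconnectin on synaptic vesicles. Rogdi (chr16:5008730-5013553, minus strand), whose loss in humans causes Kohlschütter-Tönz syndrome, had 7.34, 8.46 and 8.17 FPKM in Nlk-KO libraries, against 10.6, 11.3 and 9.88 FPKM in WT libraries. It fell by 24.6% (log2 fold change −0.40, SE 0.071, adjusted p = 0.00423) with no overlap. Wdr7 (chr18:63708685-63989776, plus strand) had 4.89, 4.25 and 4.47 FPKM in Nlk-KO libraries, against 5.77, 5.92 and 5.51 FPKM in WT libraries. It fell by 20.9% (log2 fold change −0.33, SE 0.064, adjusted p = 0.00604), again with no overlap. The other RAVE members did not pass the threshold. Dmxl2 had 8.56, 9.36 and 8.76 FPKM in Nlk-KO libraries, against 9.87, 9.46 and 11.3 FPKM in WT libraries (log2 fold change −0.19, 95% interval −0.36 to −0.02, adjusted p = 0.0728). Dmxl1 had 4.75, 4.33 and 3.90 FPKM in Nlk-KO libraries, against 4.38, 4.20 and 4.52 FPKM in WT libraries, which overlapped (−0.02, adjusted p = 0.888). The log2 ratio of Dmxl1 to Dmxl2 was 0.18 higher in Nlk-KO cells without overlap (exact p = 0.1, adjusted p = 0.175), and 0.082 higher without Nlk-KO replicate 1.

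Among the factors that build V0 in the endoplasmic reticulum, 1 passed the threshold. Ccdc115 (chr1:34436670-34439672, minus strand), whose human counterpart is mutated in a disorder of glycosylation, had 23.2, 23.0 and 22.2 FPKM in Nlk-KO libraries, against 24.7, 25.6 and 25.1 FPKM in WT libraries. It fell by 9.32% with no overlap (log2 fold change −0.14, SE 0.034, adjusted p = 0.0154), the smallest change among the 7. The call was lost without Nlk-KO replicate 3 (adjusted p = 0.0556) or without WT replicate 2 (adjusted p = 0.0548), and its adjusted p ran from 0.00649 to 1.00 over 18 alternative settings. Its partner Tmem199 averaged 47.7 FPKM in Nlk-KO and 46.9 FPKM in WT cells (log2 fold change 0.02, adjusted p = 0.754), and lies 55 kb from Nlk on chromosome 11. Vma21, the chaperone of V0 assembly known from yeast, averaged 9.48 FPKM in Nlk-KO and 8.79 FPKM in WT cells with no overlap (0.11, adjusted p = 0.104). The Atp6ap1 locus, which encodes the accessory subunit Ac45 and is shared with another gene, averaged 155 FPKM in Nlk-KO and 149.6 FPKM in WT cells (0.05, adjusted p = 0.277). Atp6ap2, the prorenin receptor, averaged 35.4 FPKM in Nlk-KO and 35.3 FPKM in WT cells (0.00, 95% interval −0.16 to 0.16, adjusted p = 0.995).

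Ncoa7 and Oxr1 carry a TLDc domain and are known to bind V1. Ncoa7 had 13.3, 12.2 and 12.7 FPKM in Nlk-KO libraries and 13.1 FPKM in each WT library (log2 fold change −0.04, adjusted p = 0.476). Its chromosome, 10, had a median log2 fold change of −0.20 over 646 loci. With the median of its chromosome removed, Ncoa7 stood higher at 0.14 (adjusted p = 0.0275, against a range of 0.0275 to 1.00 over 18 alternatives). Oxr1 had 16.3, 14.7 and 16.6 FPKM in Nlk-KO libraries and 15.6, 14.8 and 14.9 FPKM in WT libraries (0.07, adjusted p = 0.339). Their log2 ratio, Ncoa7 over Oxr1, differed by −0.11 with no overlap (exact p = 0.1, adjusted p = 0.175). The assembly group as a whole had 0 higher and 3 lower of 11 genes tested by limma, against 18.6% and 18.5% of all loci. Its median log2 fold change was −0.02. Unadjusted p-values under 0.05 were found for 1 higher (Vma21) and 4 lower genes, against 22.9% and 23.9% of all loci.

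Among the uncalled members, Atp6v1g2 had by far the widest interval. Over the other 21, the 95% intervals of the log2 fold change lay between −0.36 and 0.21. Another 7 genes did not overlap between genotypes without passing the threshold, namely Atp6v0a4, Atp6v0c, Atp6v1c1, Atp6v1f, Atp6ap1, Vma21 and Dmxl2. A lack of overlap was common, at 48.3% of the 29 tested members and 51.0% of all loci. The calls were of small size. When the test asked for a change of more than 1.2-fold, 0 of the 7 passed, with 8.44% of all loci still called, and the adjusted p of Tcirg1 was 0.0688 (0.000914 to 0.142 over its 18 alternatives). When the libraries were scaled to the same sum over loci with a symbol, 0 of the 7 passed, and 566 loci were higher and 355 lower in all (7.27%). The 10 highest of those loci took 7.15% to 32.1% of that sum by library. Over the 16 other alternatives, 6 of the 7 kept their call, Ccdc115 being the exception. Removing the chromosome medians kept all 7 calls, including those of Wdr7 and Atp6v0a1, whose chromosomes had medians of −0.08 and −0.06.

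Promoter sequences are shown for the members that hold a palindrome bound by Tfeb and its relatives, since lysosomal genes are known to carry it. RefSeq promoter windows (GRCm38.p6, 250 bases before to 50 after the start) were matched for 25 of the 34 genes. Windows of Atp6v0a2, Atp6v0d2, Atp6v1b2, Atp6v1c1, Atp6v1g1, Atp6v1h, Dmxl1, Wdr7 and Oxr1 were not analysed here. The letters CACGTG occurred in the windows of 6 of these 25 genes (24%), against 8.09% of 27025 genes. The longer form TCACGTGA, which contains the shorter one, occurred in 4 of 25 (16%), against 1.12%. Both read the same on either strand. Each stretch below is written 5′ to 3′ on the strand of its gene, with the motif in capitals.
Atp6v0d1: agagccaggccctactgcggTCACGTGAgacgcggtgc
Atp6v0e: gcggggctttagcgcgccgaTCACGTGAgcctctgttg
Atp6v1a: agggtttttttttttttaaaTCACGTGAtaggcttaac
Vma21: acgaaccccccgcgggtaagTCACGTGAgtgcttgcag
Atp6v0b: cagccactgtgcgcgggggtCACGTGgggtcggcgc
Ccdc115: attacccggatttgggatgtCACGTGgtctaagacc
The stretch of Atp6v0d1 is chr8:105566051-105566088 (minus strand), and its motif begins 4 bases before the start. That of Atp6v0e is chr17:26676378-26676415 (plus strand), with the motif 2 bases after the start. In Atp6v1a (chr16:44139374-44139411, minus strand) the motif begins 132 bases before the start, and in Vma21 (chrX:71816685-71816722, plus strand) 53 bases before one of its starts. In Atp6v0b (chr4:117887350-117887385, minus strand) and Ccdc115 (chr1:34439698-34439733, minus strand) it begins 36 and 41 bases before the start. The window of Atp6v0b holds 2 matches of CACGTG, of which 1 is shown, and another window of Vma21 holds 1, beginning 242 bases before its start. Among these 6 genes, Atp6v0d1 and Ccdc115 fell, and Atp6v0e, Atp6v1a, Vma21 and Atp6v0b did not pass the threshold. No motif was found in the 3 windows of Tcirg1, in that of Atp6v0a1 or in that of Rogdi. A match is only a run of letters, and binding was not measured in these libraries.

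Genes that work beside the pump were counted in the same fit, and each count stands against 18.6% of all loci higher and 18.5% lower. Of 13 tested genes for counter-ion transport in acidic organelles, 2 were higher and 2 lower, with a median log2 fold change of −0.01. Tpcn1, a cation channel of endosomes and lysosomes, rose to 13.5 ± 0.0554 FPKM in Nlk-KO cells, against 10.9 ± 0.225 FPKM in WT cells (log2 fold change 0.31, adjusted p = 0.000527). Clcn3, a chloride-proton exchanger, fell to 36.6 ± 1.23 FPKM in Nlk-KO cells, against 44.5 ± 0.532 FPKM in WT cells (−0.28, adjusted p = 0.000808). Tmem175, a lysosomal channel for potassium and protons, also fell (−0.21, adjusted p = 0.0122), and Tmem206 rose (0.20, adjusted p = 0.00556). Of the 10 genes for Ragulator, the Rag GTPases and Slc38a9, which bind the pump and recruit mTORC1, 1 was higher and 3 were lower, with a median of −0.01. Lamtor2 fell by 0.26 (adjusted p = 0.00118), Lamtor5 by 0.21 (adjusted p = 0.0359) and Lamtor3 by 0.09 (adjusted p = 0.0412) on the log2 scale, and Rragd rose by 0.16 (adjusted p = 0.0387).

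Among the transcription factors of the Tfeb family, Tfe3 rose to 15.6 ± 0.184 FPKM in Nlk-KO cells, against 13.3 ± 0.462 FPKM in WT cells (log2 fold change 0.23, adjusted p = 0.00290). Mitf fell to 0.459 ± 0.0334 FPKM in Nlk-KO cells, against 0.925 ± 0.0823 FPKM in WT cells (−0.87, adjusted p = 0.00307). Its mean in Nlk-KO cells lay below 0.5 FPKM, so Mitf passed the filter only through its level in WT cells. Tfeb was 4.72 ± 0.103 FPKM in Nlk-KO and 4.44 ± 0.327 FPKM in WT cells (0.09, adjusted p = 0.318), and Tfec was listed at 0 (SD, n = 3 each). Of the other TLDc genes, Tldc1 and Tbc1d24 had log2 fold changes of 0.16 and 0.15, with 0 past the threshold by limma and 2 at an unadjusted p under 0.05. Such an unadjusted p was found for 46.8% of all loci. The F-type ATP synthase is the related rotary enzyme of mitochondria. Its 16 tested genes held 0 higher and 8 lower by limma, against 18.6% and 18.5% of all loci, with a median log2 fold change of −0.17. Unadjusted p-values under 0.05 were found for 2 higher and 10 lower genes, against 22.9% and 23.9% of all loci. Atp5e (−0.27, adjusted p = 0.0341), Atp5j2 (−0.20, adjusted p = 0.0235) and the locus of Atp5d, merged with Midn (−0.32, adjusted p = 0.0149), had the largest falls among the 8 past the threshold. The difference between these lists and the V-ATPase genes was not tested.

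**Figure D5:**
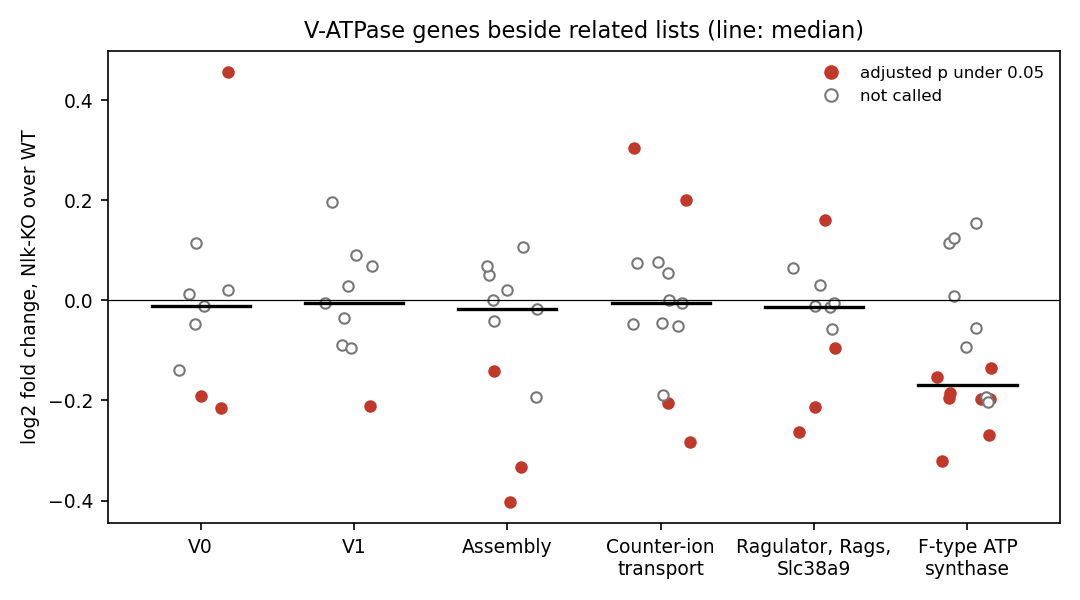
Log2 fold change, Nlk-KO over WT, of each tested gene of V0, V1 and the assembly group and of 3 related lists, with horizontal spread only to separate points; red filled points passed an adjusted p of 0.05 and black lines are medians. The medians of the V-ATPase groups are −0.01, −0.01 and −0.02, those of counter-ion transport and of the Ragulator list −0.01, and that of the F-type ATP synthase −0.17.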

How the data were processed

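The authors aligned the reads to GRCm38/mm10 with TopHat2 (2.1.0), quantified loci with Cufflinks (2.2.1) and ran Cuffnorm for normalization. The authors deposited these values as FPKM per locus and library. Annotation, strand setting and read totals are not stated in what was used here. Deposited averages, fold changes and Cuffdiff p-values were not used. All library columns were mapped by name (0 unmapped), and 1 line without values was left out. A symbol with several loci was read at its highest locus. The V-ATPase genes, the lists and the tests were chosen with earlier results of these data known.

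Loci averaging 0.5 FPKM or more were kept. Their log2(FPKM + 0.1) values were compared with limma (3.58.1, trended prior variance) in R 4.3.3, with Benjamini-Hochberg adjustment over all loci and a threshold of 0.05. The fit was tested on simulated data. Paralog ratios were tested by exact permutation. Every tested member is named, with all 6 values for members past the threshold and for families with more than 1 expressed paralog. Up to 3 changed genes per related list are named by size. Tmem206 and Lamtor3 lie outside that rule and were named with their values known. Promoters came from RefSeq and gene positions from GENCODE M21. The alternatives were pseudocounts of 0.01 and 1, no filter or a minimum of 5 FPKM, 3 other scalings, no trend, a test against 1.2-fold, chromosome medians removed, summed loci, a replicate block and each library left out. Some genes of the marker list and of shared loci are not reported here.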

Additional observations from a re-analysis of the deposited data

Results flagged for a closer look

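A second locus with the symbol Atp6v0a1, listed at the same coordinates on chromosome 11, was outside the comparisons because it had the lower level. It had 2.18, 2.13 and 2.15 FPKM in Nlk-KO libraries, against 1.01, 0.892 and 0.948 FPKM in WT libraries, with no overlap. Its log2 fold change was 1.10 (SE 0.087, adjusted p = 0.000101 by limma), whereas the higher Atp6v0a1 locus fell by 0.19. In the table's numbering, all 93 matched neighbors of the second locus are genes of the minus strand, and 89 of 90 neighbors of the higher locus are genes of the plus strand. What the second locus counts was not tested. With the loci summed, the call for Atp6v0a1 stayed.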

How the results depend on the processing

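The main counts were 1 higher and 6 lower. Scaling to the same sum gave 0 higher and 0 lower, with medians of 0.051 for V0, 0.057 for V1 and 0.045 for the assembly group, and testing against 1.2-fold also gave 0 and 0. These settings called 7.27% and 8.44% of all loci in either direction, against 37.1% in the main fit. Median-ratio scaling gave 2 higher (Atp6v0c added), with 37.9% of all loci called. Removing chromosome medians gave 2 higher (Ncoa7 reversed to 0.14) and 8 lower (Atp6v0a4 and Atp6v1f added), with 32.2% called. With 1 library left out, 1 to 3 were higher and 5 to 7 lower, with 27.6% to 35.6% of all loci called. The 3 came without Nlk-KO replicate 2, where Atp6v1c1 and Atp6v1e1 were added. The medians then ran from −0.034 to 0.019 for V0, −0.034 to 0.029 for V1 and −0.077 to 0.0079 for the assembly group. The other settings kept both counts within 1.5 times. After the mean of each genotype was subtracted at each locus, same-numbered libraries of the genotypes correlated at 0.037, 0.060 and −0.132. Unlike-numbered libraries ran from −0.189 to 0.188. Deviations from a mean of 3 libraries are tied to each other, so these values cannot decide whether the numbers pair the libraries. A replicate block gave 1 higher and 6 lower again, with 31.9% of all loci called. The cause of these differences was not tested. Unknown read totals limit what can be said of genes near 0.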
